A study of Mus musculus with 6 samples.

Results

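The genes described here build the meiotic chromosome: the synaptonemal complex, the machinery that breaks and repairs DNA for crossing over, the cohesin ring, the anchors of telomeres, and a few germ cell regulators of meiosis. Of 42 names chosen as a list, 37 equalled a gene name among the 22770 rows of the deposited count table and are the members. The names Six6os1, Mei4, Iho1, Spata22 and Rad21l gave no such row and were not analysed here under those names. Of these, 2 have a row under an older symbol, 4930447C04Rik for Six6os1 and Ccdc36 for Iho1, whose values are given apart.

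The libraries were made with Smart-seq2, a PCR-amplified method for polyadenylated RNA, from mouse round spermatids, the haploid cells formed by meiosis, sorted at postnatal day 28 and mostly at step 8. The genotypes were Eif5a SKO, which the labels leave unexpanded, and wild type, with 3 libraries each. Eif5a encodes a translation factor. The sources used here give neither the driver of the deletion, nor the strain, nor any pooling of animals. They also do not say that the 3 libraries of a group came from separate animals, so p-values measure only the spread between these libraries, which may be technical.

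As background, homologous chromosomes in a spermatocyte are cut by SPO11, repaired from each other with the strand-exchange protein DMC1, and held side by side by the synaptonemal complex until some breaks have become crossovers. Cohesin, with subunits used only in germ cells, keeps sister chromatids together along the axis on which this happens. Round spermatids have finished both meiotic divisions, so transcripts of these genes in them can be carried over from spermatocytes or made anew, and the counts do not separate those sources. In these bulk libraries, fewer cells of a type and less RNA per cell also cannot be told apart.

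Library totals ran from 52055193 to 60970931 counts. Levels are in CPM, counts scaled to the effective size of each library, and changes are log2 fold changes of SKO against wild type ± SE from edgeR's quasi-likelihood test, called at an adjusted p under 0.05 over all 19776 genes tested. Eif5a stood at 6.17 ± 0.771 CPM in SKO and 659.7 ± 42.3 CPM in wild type (mean ± SD, n = 3 each), with every SKO library below every wild-type library. The second principal component set SKO replicate 3 apart from the other SKO libraries. Summed levels of round spermatid markers, 12 genes that include Acrv1, Tnp2 and Prm1, were 8344 to 9109 CPM in SKO and 5989.5 to 6693 CPM in wild type. Of the 12, 7 were called higher. Over all genes tested 21.2% were called higher and 20.9% lower, the shares to set beside each marker count. Spermatocyte markers, 14 genes, summed to 17050 to 18638 CPM in SKO and 11921 to 12239 CPM in wild type, with 5 of 14 called higher and 2 lower. Ldhc alone gave 10952 to 12324 CPM of this in SKO and 7196 to 7387 CPM in wild type, and the other markers summed to 4917 to 6314 CPM and 4726 to 4853 CPM. Of 7 spermatogonial markers 0 were called higher and 2 lower, with sums of 509 to 696 CPM in SKO and 719 to 781 CPM in wild type. Without Dmrtb1, which was not called, these sums were 27.9 to 29.3 CPM in SKO and 30.7 to 34.5 CPM in wild type. The 8 Sertoli cell markers with a row summed to 68.6 to 229 CPM in SKO and 3.65 to 13.0 CPM in wild type, and 7 of them were called higher. The Sertoli list had 14 names, of which Sox9, Wt1, Amh, Gata4, Cldn11 and Rhox5 had no row, so the sum leaves those markers out. The marker lists were chosen with earlier results of these data known, so their counts are no independent evidence of cell types. The 6 Leydig cell markers summed to 8.02 to 44.6 CPM in SKO and 1.26 to 21.6 CPM in wild type, with 3 called higher and 0 lower. For the 5 macrophage markers the sums were 1.94 to 7.35 CPM in SKO and 3.99 to 4.81 CPM in wild type. Of the 4 tested, Lyz2 was called higher and Adgre1 lower. Without Adgre1 the macrophage sums were 1.735 to 6.75 CPM in SKO and 1.45 to 2.02 CPM in wild type. All 22770 rows had a count in at least 1 library, so a marker with a row could not be at 0 in all 6. The part of other cell types in the results was not tested.

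Promoters of the members called with the lowest adjusted p in each direction, Sycp3 and Brca2, and of the paralogs Smc1b and Smc1a are shown first, because these genes carry the contrasts that follow. Each covers 250 bases before the RefSeq transcript start (GRCm38.p6), written 5′ to 3′ on the strand of the gene, with capitals marking matches to the motifs named after the sequences. The windows are chr10:88459337-88459586 (plus strand) for Sycp3, chr5:150522371-150522620 (plus) for Brca2, chr15:85131958-85132207 (minus) for Smc1b and chrX:152016178-152016427 (plus) for Smc1a. In GENCODE these genes span, in the same order, 88459569 to 88473236 on chromosome 10, 150522630 to 150570329 on chromosome 5, 85064689 to 85131964 on chromosome 15 and 152016428 to 152062694 on chromosome X of GRCm38, so only the last bases of the Sycp3 and Smc1b windows lie within their own genes.
Sycp3: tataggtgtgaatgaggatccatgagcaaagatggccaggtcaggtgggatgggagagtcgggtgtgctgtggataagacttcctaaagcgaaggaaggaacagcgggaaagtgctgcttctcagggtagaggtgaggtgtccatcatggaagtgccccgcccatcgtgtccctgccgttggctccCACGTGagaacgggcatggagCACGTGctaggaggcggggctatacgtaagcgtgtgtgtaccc
Brca2: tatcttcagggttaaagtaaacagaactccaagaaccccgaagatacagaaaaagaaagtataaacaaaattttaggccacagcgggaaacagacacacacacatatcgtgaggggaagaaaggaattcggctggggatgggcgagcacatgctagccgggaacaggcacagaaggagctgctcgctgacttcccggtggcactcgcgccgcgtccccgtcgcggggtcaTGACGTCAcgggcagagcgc
Smc1b: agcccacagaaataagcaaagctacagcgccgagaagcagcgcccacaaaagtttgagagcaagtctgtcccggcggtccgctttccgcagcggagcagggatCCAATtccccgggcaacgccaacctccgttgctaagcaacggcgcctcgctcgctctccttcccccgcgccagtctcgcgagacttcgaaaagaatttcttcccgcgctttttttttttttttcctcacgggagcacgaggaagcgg
Smc1a: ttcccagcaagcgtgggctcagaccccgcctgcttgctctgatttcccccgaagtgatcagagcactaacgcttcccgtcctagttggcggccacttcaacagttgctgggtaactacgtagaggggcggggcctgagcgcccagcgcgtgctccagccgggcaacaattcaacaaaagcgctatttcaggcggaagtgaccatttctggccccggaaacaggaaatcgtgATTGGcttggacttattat

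The motifs searched on both strands in such windows were the E-box CACGTG, the cAMP response element TGACGTCA, the E2F-type site GGCGGGAA and the CCAAT box CCAAT, none of which overlapped another in the windows shown. RefSeq had a window for 29 of the 37 members and for 27025 genes in all. The Sycp3 window holds E-boxes that begin 64 and 43 bases before the start, and the Brca2 window holds a cAMP response element that begins 20 bases before it. The windows of Smc1b and Smc1a each hold a CCAAT box, beginning 147 and 19 bases before the start. Among members the E-box was found in 7 of 29 (24.1%), against 6.86% of all genes with a window, and the E2F-type site likewise in 7 of 29 (24.1%), against 2.13%. The cAMP response element was in 1 of 29 (3.45%), against 1.77%, and the CCAAT box in 10 of 29 (34.5%), against 37.5%. Hormad1, Syce2 and Tex12 held both the E-box and the E2F-type site, and none of these 3 was called changed. The E-box stood in 1 of 9 windows of members called higher and in 1 of 8 windows of members called lower. A match describes the letters of the window only.

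All 37 members passed the filter on low counts, and the list split in both directions. In SKO spermatids 9 members were called higher and 10 lower, so 19 of 37 (51.4%) changed where 42% of all genes tested were called. The background was 21.2% for calls higher and 20.9% for calls lower. Median log2 fold change over the members was 0.06, beside 0.01 over all genes tested, and it was -0.18 when libraries were scaled by their totals alone, which moved all genes to -0.23. The 3 SKO values lay wholly above the 3 wild-type values for 10 members and wholly below for 12, together 59.5%, against 55.6% of all genes. Called higher were Sycp3, Syce1, Syce3, Dmc1, Hfm1, Smc1b, Smc1a, Smc3 and Meioc. Called lower were Hormad2, Spo11, Mei1, Hsf2bp, Brca2, Meiob, Msh5, Rnf212, Stag3 and Terb1. Without SKO replicate 3 the counts were 10 higher and 13 lower. The higher count fell with some single libraries left out, to 5 without SKO replicate 2, 4 without wild-type replicate 1 and 5 without wild-type replicate 2. In the same 3 fits all genes called higher fell from 4185 to 3321, 3169 and 3064. Scaling by library totals alone gave 5 higher and 14 lower.

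**Figure D1:**
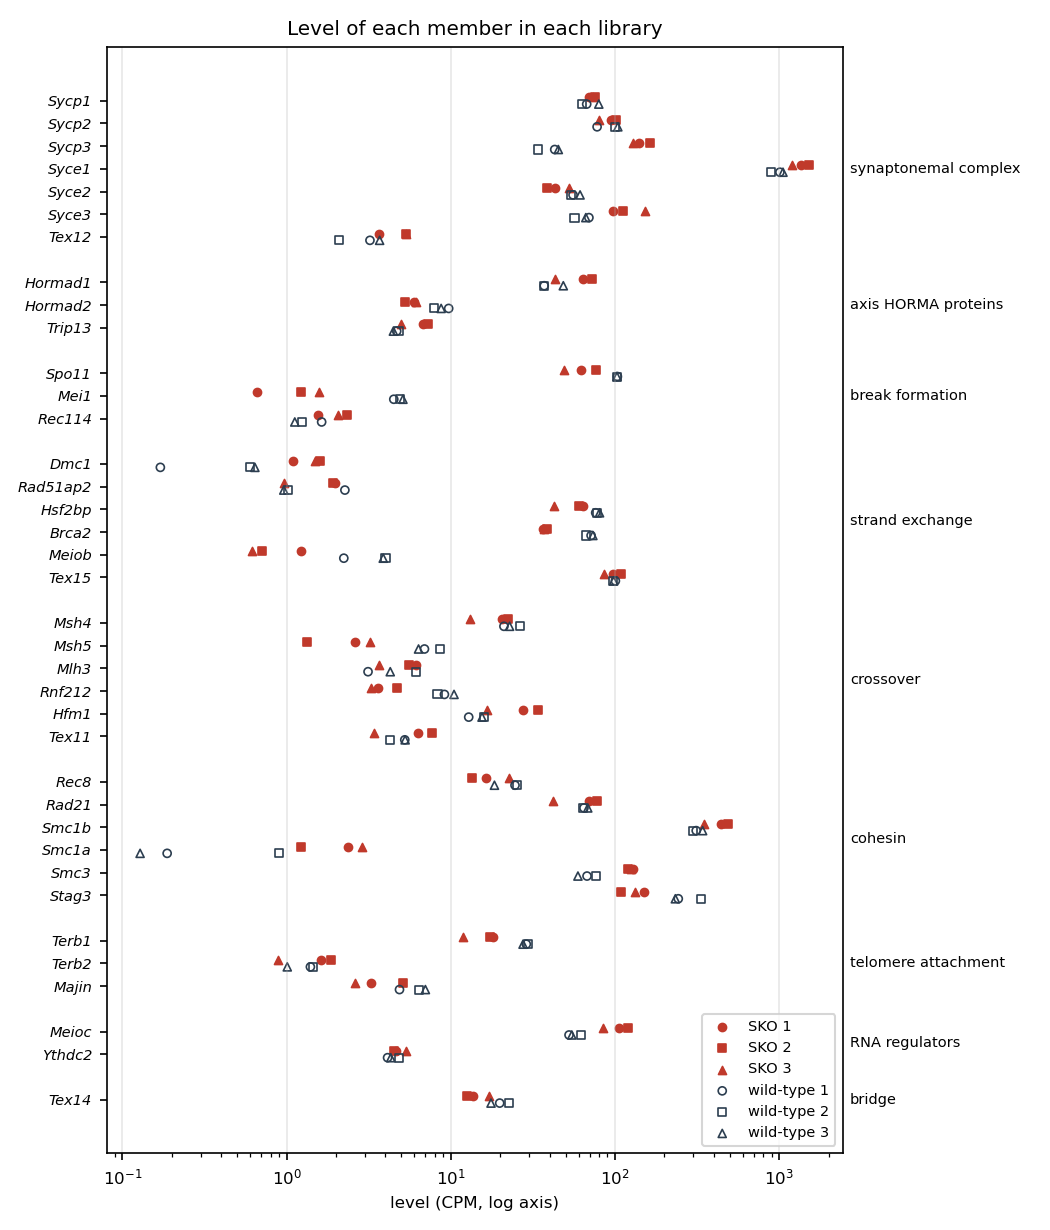
Level of each of the 37 members in every library in CPM on a log axis, grouped by role. Filled red symbols are the SKO libraries and open dark symbols the wild-type libraries, with 1 symbol shape per replicate number. Syce1 is the most abundant member at 893 to 1525 CPM. By group mean Smc1a and Dmc1 are the scarcest in wild type, and Meiob and Mei1 in SKO.

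Every member had counts in all 6 libraries, over a wide range of levels. Their summed level was 3167, 3445 and 2810 CPM in SKO replicates 1, 2 and 3 and 2623, 2603 and 2742 CPM in wild-type replicates 1, 2 and 3, to which Syce1 alone gave a large share. Leaving out Syce1, the sums were 1809, 1919 and 1605 CPM in SKO and 1613, 1711 and 1687 CPM in wild type, which overlap. In wild type 14 members had a mean above 50 CPM and 12 a mean below 5 CPM. Per kilobase of transcript, the scale on which genes can be compared, wild-type levels were 675 CPM per kilobase for Syce1, 134 for Syce3, 78.3 for Smc1b and 57.9 for Stag3. These put the 4 genes at percentiles 99.6, 95.8, 93.1 and 91.0 of all genes tested. At the other end Smc1a stood at 0.0866 CPM per kilobase, percentile 1.84, and Dmc1 at 0.212, percentile 11.1. SKO replicate 3 had the lowest of the 3 SKO values for 21 of 37 members and the highest for 10.

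The synaptonemal complex is a zipper whose lateral elements hold SYCP2 and SYCP3, whose transverse filaments are SYCP1, and whose central element is built of the SYCE proteins and TEX12. Of 7 measured genes 3 were called higher and 0 lower, beside 21.2% and 20.9% of all genes tested. Their median log2 fold change was 0.47. Sycp3 stood at 139, 164 and 128 CPM in SKO replicates 1, 2 and 3 against 43.0, 33.8 and 45.2 CPM in wild-type replicates 1, 2 and 3. The groups did not overlap, and the lowest SKO library was above every wild-type library by a wide margin. Sycp3 rose 3.54-fold (log2 fold change 1.82 ± 0.16, edgeR adjusted p = 5.77e-05). Correcting each library for the length and GC content of transcripts lowered this to 1.03, which was still called. Its exons share 660 of 1264 annotated bases with those of Chpt1, a phospholipid synthesis gene on the opposite strand, and without strand in the counts reads of that stretch cannot be assigned with certainty. Chpt1 itself stood at 94.6, 101 and 56.3 CPM in SKO and 106, 106 and 125 CPM in wild type, lower in each SKO library than in any wild-type library, but not called (log2 fold change -0.42 ± 0.21, edgeR adjusted p = 0.133).

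Its partner in the lateral element, Sycp2, was not called, with 94.9, 101 and 79.6 CPM in SKO and 77.8, 99.8 and 104 CPM in wild type. The log2 fold change of Sycp2 was -0.03 ± 0.16 (edgeR adjusted p = 0.896), with a sign that turned under 4 of 15 alternatives. For the transverse filament gene Sycp1 the values were 69.9, 75.6 and 73.1 CPM in SKO and 67.3, 63.1 and 79.7 CPM in wild type. Both genes had overlapping groups. The log2 difference of Sycp1 was 0.06 ± 0.14, not called (edgeR adjusted p = 0.769), and its sign turned under 3 of 15 alternatives. After the length and GC correction it was called lower, at -0.35.

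Central element genes differed among themselves. Syce3, the shortest member transcript at 480 bases, stood at 96.8, 112 and 153 CPM in SKO and 69.4, 56.7 and 66.4 CPM in wild type, with all SKO libraries above all wild-type ones. It rose by 0.91 ± 0.18 on the log2 scale (edgeR adjusted p = 0.00341), or by 0.52 after the length and GC correction. Syce1 was at 1357, 1525 and 1205 CPM in SKO and 1009.9, 893 and 1055 CPM in wild type, again without overlap, and rose by 0.47 ± 0.13 (edgeR adjusted p = 0.0189). That smaller rise was not called with library totals alone (0.22), nor when SKO replicate 2 or either of wild-type replicates 1 and 2 was left out. Syce2, whose protein pairs with TEX12, stood at 42.9, 38.6 and 52.7 CPM in SKO, wholly below 55.5, 54.1 and 61.3 CPM in wild type, but was not called (log2 fold change -0.35 ± 0.16, edgeR adjusted p = 0.0994). Without SKO replicate 3, or with library totals alone, it was called lower. Tex12 was scarce, with 3.68, 5.31 and 5.33 CPM in SKO and 3.22, 2.08 and 3.69 CPM in wild type, and was not called (edgeR adjusted p = 0.0752). The row 4930447C04Rik, the older symbol of the central element gene Six6os1, was at 4.81 ± 0.789 CPM in SKO and 3.59 ± 0.783 CPM in wild type (mean ± SD, n = 3 each) and was not called (edgeR adjusted p = 0.188).

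HORMAD1 and HORMAD2 mark chromosome axes that have not yet synapsed, and the ATPase TRIP13 takes them off. Hormad2 was called lower, with 5.95, 5.29 and 6.16 CPM in SKO against 9.71, 7.88 and 8.74 CPM in wild type and no overlap. It fell by 0.60 ± 0.18 on the log2 scale (edgeR adjusted p = 0.0229), a call lost when SKO replicate 2 or either of wild-type replicates 1 and 3 was left out. Hormad1 was not called, at 63.8, 72.4 and 43.1 CPM in SKO and 37.1, 37.1 and 48.5 CPM in wild type. SKO replicate 3 lay within the wild-type range (log2 fold change 0.55 ± 0.21, edgeR adjusted p = 0.0576). Without that library, by DESeq2, with upper quartile scaling and with the stricter filter Hormad1 was called higher, while the length and GC correction turned it to -0.09. Trip13 had 6.73, 7.24 and 5.01 CPM in SKO, all above 4.68, 4.81 and 4.47 CPM in wild type, and was not called (edgeR adjusted p = 0.112) unless SKO replicate 3 was left out.

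Of 3 measured genes of break formation 2 were called lower and 0 higher, beside 20.9% and 21.2% of all genes tested. So small a group cannot be told from that share. SPO11 is the enzyme that cuts DNA, and MEI1, REC114 and IHO1 are needed for it to act. Spo11 transcripts were still abundant, at 61.7, 76.6 and 48.6 CPM in SKO and 103, 102 and 103 CPM in wild type. All 3 SKO libraries lay below a tight wild-type group, and Spo11 fell 1.65-fold (log2 fold change -0.72 ± 0.17, edgeR adjusted p = 0.00763). Mei1 was much scarcer, with 0.661, 1.22 and 1.58 CPM in SKO and 4.50, 4.89 and 5.11 CPM in wild type. All SKO libraries lay far below wild type, and Mei1 fell 4.17-fold (log2 fold change -2.06 ± 0.32, edgeR adjusted p = 0.000847). Rec114, whose exons share 344 of 1277 bases with Nptn on the opposite strand, was at 1.55, 2.34 and 2.06 CPM in SKO and 1.64, 1.24 and 1.12 CPM in wild type and was not called (edgeR adjusted p = 0.161). The row Ccdc36, the older symbol of Iho1, stood at 1.38, 1.28 and 1.94 CPM in SKO and 4.38, 4.19 and 2.47 CPM in wild type and fell by 1.26 ± 0.31 (edgeR adjusted p = 0.00887). Counting both rows under older symbols gives 9 members higher and 11 lower.

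**Figure D2:**
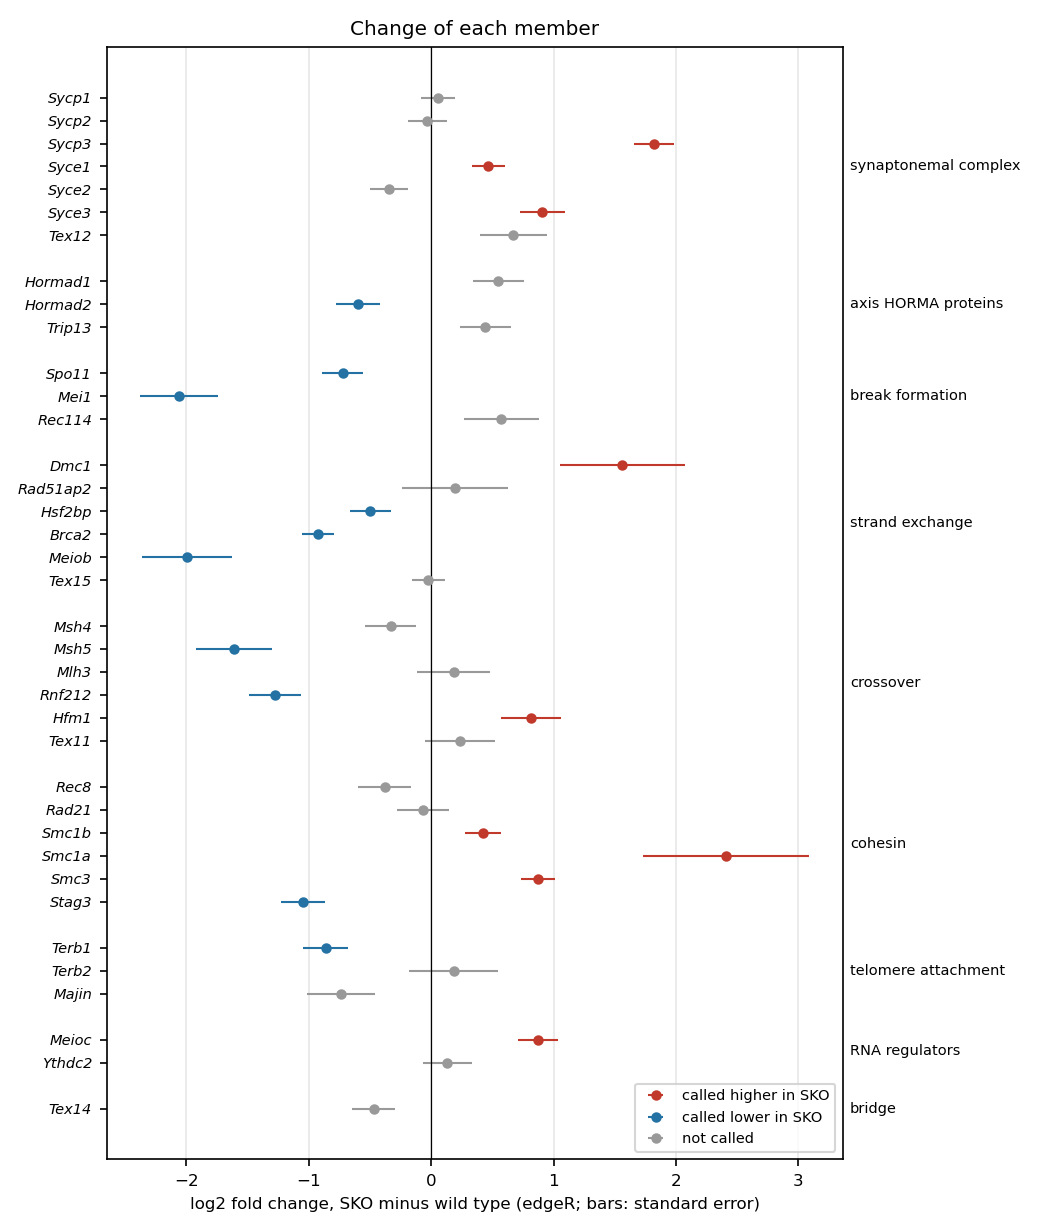
Log2 fold change of each member, SKO minus wild type, with its standard error from edgeR (n = 3 libraries a group), grouped by role. Red points are members called higher, blue points those called lower and grey points those not called. Called members run from -2.06 for Mei1 to 2.41 for Smc1a.

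Strand exchange genes act on the resected break: BRCA2 and its meiotic partner HSF2BP help load DMC1, the meiotic recombinase, and MEIOB with SPATA22 binds the single strand. Of 6 measured genes 1 was called higher and 3 lower, beside 21.2% and 20.9% of all genes tested. Brca2 stood at 36.2, 38.5 and 36.8 CPM in SKO and 71.5, 66.6 and 73.3 CPM in wild type. The libraries of each group lay close together with a wide gap between the groups, and Brca2 fell 1.90-fold (log2 fold change -0.92 ± 0.13, edgeR adjusted p = 0.000517). Hsf2bp went the same way with a smaller difference, at 63.9, 60.0 and 42.6 CPM in SKO and 76.3, 77.9 and 80.5 CPM in wild type. Its fall of 0.50 ± 0.17 (edgeR adjusted p = 0.0379) was not called without any 1 of the wild-type libraries, nor after the length and GC correction, which brought it to -0.31.

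Meiob was scarce, at 1.22, 0.705 and 0.614 CPM in SKO, all below 2.23, 4.01 and 3.88 CPM in wild type, and fell 3.99-fold (log2 fold change -1.995 ± 0.36, edgeR adjusted p = 0.00208). Dmc1 went the other way from a lower level still, with 1.09, 1.60 and 1.49 CPM in SKO and 0.170, 0.597 and 0.641 CPM in wild type. Its wild-type counts were 10, 35 and 40 and its SKO counts 53, 86 and 75. The groups did not overlap, but the call (log2 fold change 1.56 ± 0.51, edgeR adjusted p = 0.0327) was lost without SKO replicate 2 or 3, without wild-type replicate 1 or 2, with library totals alone and after the length and GC correction. Tex15, a large germ cell protein needed for recombination and transposon silencing, stood at 97.0, 109 and 85.1 CPM in SKO and 101, 97.2 and 98.1 CPM in wild type, with overlap. It was not called (log2 fold change -0.02 ± 0.13, edgeR adjusted p = 0.909), and its sign turned under 3 of 15 alternatives. Rad51ap2 was at 1.96, 1.93 and 0.970 CPM in SKO and 2.27, 1.02 and 0.962 CPM in wild type and was not called (edgeR adjusted p = 0.747).

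Of 6 measured crossover genes 1 was called higher and 2 lower, beside 21.2% and 20.9% of all genes tested. As background, MSH4 and MSH5 form a clamp that holds recombination intermediates, RNF212 marks the few sites that will cross over, HFM1 is a helicase, and MLH3 completes the exchange. Msh5 stood at 2.60, 1.34 and 3.21 CPM in SKO and 6.92, 8.56 and 6.36 CPM in wild type, without overlap. It fell 3.06-fold (log2 fold change -1.61 ± 0.31, edgeR adjusted p = 0.00282). Its partner Msh4, at 20.4, 22.4 and 13.0 CPM in SKO and 21.1, 26.4 and 22.8 CPM in wild type, overlapped and was not called (log2 fold change -0.33 ± 0.21, edgeR adjusted p = 0.234), except with library totals alone, where it was lower. Whether the changes of these partners differ from each other was not tested. Rnf212 had 3.59, 4.68 and 3.25 CPM in SKO and 9.15, 8.30 and 10.5 CPM in wild type, again without overlap, and fell 2.42-fold (log2 fold change -1.28 ± 0.21, edgeR adjusted p = 0.00116).

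Hfm1 was the 1 crossover gene called higher, at 27.5, 33.8 and 16.6 CPM in SKO and 12.9, 16 and 15.5 CPM in wild type. SKO replicate 3 was barely above the highest wild-type library, and the rise of 0.82 ± 0.24 (edgeR adjusted p = 0.0226) was not called when any 1 library other than SKO replicate 3 was left out, or with library totals alone. Mlh3 stood at 6.16, 5.58 and 3.64 CPM in SKO and 3.13, 6.14 and 4.28 CPM in wild type, with overlap (edgeR adjusted p = 0.652). X-linked Tex11, whose protein joins synapsis to crossing over, was at 6.34, 7.64 and 3.43 CPM in SKO and 5.25, 4.26 and 5.27 CPM in wild type and was not called (log2 fold change 0.24 ± 0.29, edgeR adjusted p = 0.542), with a sign that turned under 2 of 15 alternatives. On the X chromosome as a whole 467 of 737 tested genes were called higher and 13 lower, with a median log2 fold change of 1.32.

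Cohesin is a ring of 2 SMC arms, a kleisin that closes it and a STAG subunit. In meiosis SMC1B, REC8 or RAD21L, and STAG3 replace or join the somatic SMC1A, RAD21 and STAG1 or STAG2, while SMC3 serves both kinds. Of 6 measured cohesin members 3 were called higher and 1 lower, beside 21.2% and 20.9% of all genes tested. Their median log2 fold change was 0.18. Smc3 stood at 129, 119 and 125 CPM in SKO and 67.6, 76.9 and 59.5 CPM in wild type. The SKO libraries lay close together and far above wild type, and Smc3 rose 1.83-fold (log2 fold change 0.87 ± 0.14, edgeR adjusted p = 0.000989). Stag3 moved the opposite way, at 149.7, 109 and 133 CPM in SKO and 243, 335 and 233 CPM in wild type, with no overlap. It fell 2.07-fold (log2 fold change -1.05 ± 0.18, edgeR adjusted p = 0.00144).

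The SMC1 paralogs were both called higher, from very different levels. Smc1b, the germ cell form, stood at 440.2, 489 and 348 CPM in SKO and 312, 297 and 342 CPM in wild type. SKO replicate 3 was just above the highest wild-type library, and the rise of 0.43 ± 0.15 (edgeR adjusted p = 0.0427) was not called when any 1 library other than SKO replicate 3 was left out, with library totals alone (0.18) or after the length and GC correction (0.27). X-linked Smc1a had 115, 66 and 146 counts in SKO and 11, 53 and 8 in wild type, or 2.38, 1.22 and 2.89 CPM and 0.187, 0.903 and 0.128 CPM. Wild-type replicate 2 came close to SKO replicate 2, although the groups did not overlap. Its log2 fold change was 2.41 ± 0.68 (edgeR adjusted p = 0.0176), 3.76 without wild-type replicate 2, and not called without SKO replicate 1 or wild-type replicate 1. SMC1A is the form used by somatic cells. The Sertoli marker sum, at 229, 131 and 68.6 CPM in SKO replicates 1, 2 and 3, was above the 3.65 to 13.0 CPM of wild type in each SKO library. Smc1a was highest in SKO replicate 3, where that sum was lowest. Of 737 tested X-linked genes 467 were called higher and 13 lower, with a median log2 fold change of 1.32. The part of other cell types in the Smc1a and Smc3 values, and of the X chromosome in the Smc1a value, was not tested. The kleisin genes were not called: Rad21 had 69.3, 77.3 and 41.7 CPM in SKO and 64.7, 64.3 and 68.3 CPM in wild type. Rec8 had 16.3, 13.4 and 22.7 CPM in SKO and 24.6, 25.2 and 18.4 CPM in wild type (edgeR adjusted p = 0.822 for Rad21 and 0.187 for Rec8), and without SKO replicate 3 Rec8 was called lower while the sign of Rad21 turned.

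**Figure D3:**
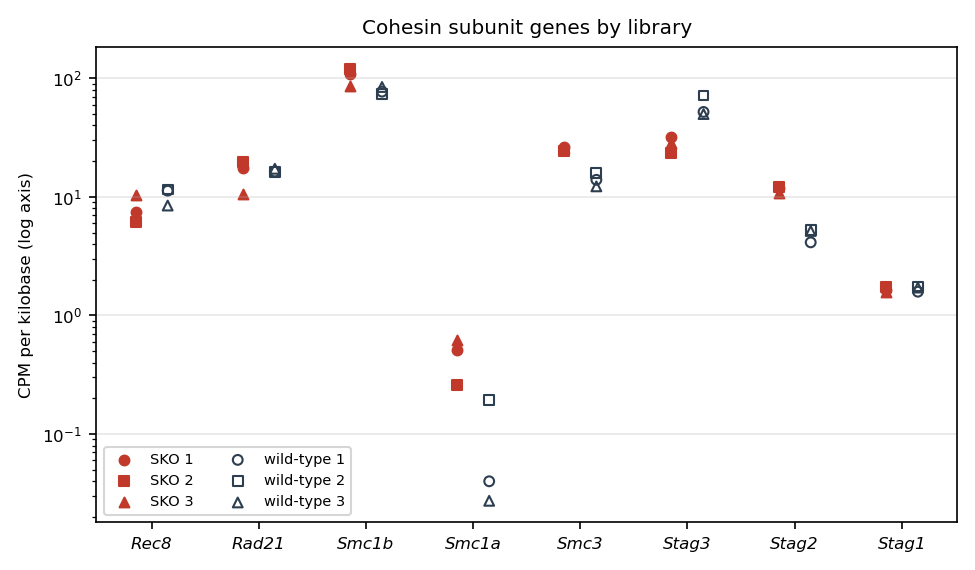
Levels of cohesin subunit genes in each library in CPM per kilobase of transcript on a log axis. Filled red symbols are SKO and open dark symbols wild type, 1 shape per replicate number. The gap between Stag3 and Stag2 is narrower in every SKO library than in any wild-type library.

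Because ratios within a library do not depend on the scaling between libraries, the meiotic and the somatic subunit were also set against each other per kilobase. Stag3 to X-linked Stag2 was 2.69, 1.93 and 2.62 in SKO replicates 1, 2 and 3 and 12.6, 13.6 and 9.69 in wild-type replicates 1, 2 and 3. The groups lay far apart, at a mean log2 ratio of 1.25 ± 0.27 in SKO and 3.57 ± 0.26 in wild type (SD, n = 3 each), a difference of -2.31. An exact permutation test, two-sided, gave p = 0.1, the smallest that 3 against 3 libraries allow, and adjusted p = 0.3 over 3 ratios. Stag2 itself rose by 1.26 ± 0.15 on the log2 scale (edgeR adjusted p = 0.000211), where the median over the 737 X-linked genes tested was 1.32. The part of the X chromosome in the Stag3 to Stag2 ratio was not tested. Stag1 was at 10.3 ± 0.506 CPM in SKO and 10.4 ± 0.550 CPM in wild type (SD, n = 3 each). Smc1b to Smc1a was 215, 463 and 139.7 in SKO and 1932, 381 and 3090 in wild type. Wild-type replicate 2 fell inside the SKO range, and the difference of -2.45 on the log2 scale gave p = 0.2 by the exact permutation test (adjusted 0.3). Rec8 to Rad21 was 0.427, 0.315 and 0.984 in SKO and 0.689, 0.709 and 0.489 in wild type, with overlap. That difference of -0.29 on the log2 scale (exact permutation p = 0.6) turned to 0.06 without SKO replicate 2 and became -0.76 without SKO replicate 3.

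Telomeres of meiotic chromosomes are tied to the nuclear envelope by a complex of TERB1, TERB2 and MAJIN. Terb1 stood at 18.1, 17.3 and 11.8 CPM in SKO and 28.8, 29.5 and 27.6 CPM in wild type. It was lower in each SKO library than in any wild-type library and fell 1.82-fold (log2 fold change -0.86 ± 0.18, edgeR adjusted p = 0.00457). Majin had 3.26, 5.12 and 2.59 CPM in SKO and 4.87, 6.43 and 7 CPM in wild type, with overlap, and was not called (log2 fold change -0.74 ± 0.28, edgeR adjusted p = 0.0596), although DESeq2, limma-voom, library totals alone and the fit without SKO replicate 2 called it lower. Terb2 was at 1.61, 1.87 and 0.891 CPM in SKO and 1.40, 1.45 and 1.01 CPM in wild type and was not called (edgeR adjusted p = 0.718).

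The RNA regulators MEIOC and YTHDC2 work as partners that let germ cells enter and stay in meiosis. Meioc stood at 106, 120.0 and 84.4 CPM in SKO and 52.5, 62.3 and 54.6 CPM in wild type, without overlap, and rose 1.83-fold (log2 fold change 0.87 ± 0.16, edgeR adjusted p = 0.00218). Ythdc2 was scarcer, at 4.65, 4.53 and 5.37 CPM in SKO and 4.12, 4.82 and 4.31 CPM in wild type. Its groups overlapped, and it was not called (edgeR adjusted p = 0.624). Tex14, which keeps the bridges between sister germ cells open, had 13.7, 12.6 and 17.2 CPM in SKO, all below 19.9, 22.8 and 17.6 CPM in wild type. It was not called (log2 fold change -0.47 ± 0.18, edgeR adjusted p = 0.0567), though DESeq2, limma-voom, library totals alone and the fit without SKO replicate 3 called it lower.

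Transcript GC content and length were not used to choose the members. Across the 37 members the log2 fold change had Pearson's r = -0.36 and Spearman's rho = -0.37 with GC content, and r = -0.12 and rho = -0.09 with log2 transcript length, as a description across genes of the same 6 libraries. Over 19411 genes tested with a transcript, r was -0.15 with GC content and -0.17 with length. Members called higher had a median GC content of 42.1% (34.3% to 52.9%), those called lower 46.0% (39.5% to 55.7%) and those not called 43.0% (34.3% to 56.7%). The ranges overlapped widely: Syce3 rose at 52.9% GC and Meiob fell at 40.1% GC. After a correction for GC content and length 7 members were called higher and 10 lower, with Hsf2bp no longer among those lower and Sycp1 newly among them.

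**Figure D4:**
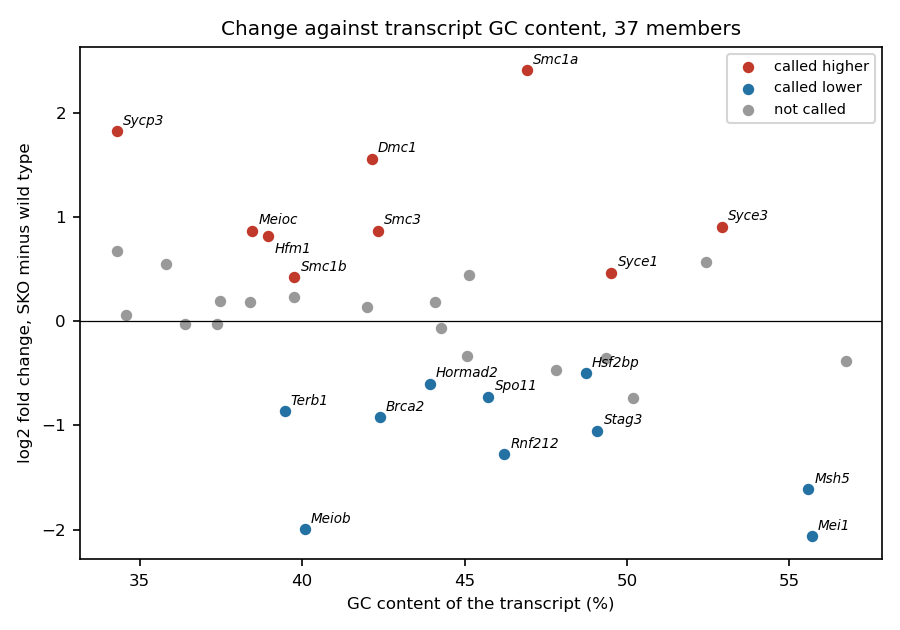
Log2 fold change of the 37 members (vertical axis) against the GC content of the transcript with the longest coding sequence in percent (horizontal axis). Red points are called higher, blue called lower and grey not called. Msh5 and Mei1, above 55% GC, are among the largest falls, and Sycp3, at 34.3% GC, is among the largest rises. The members with the highest and the lowest GC content, Rec8 at 56.7% and Tex12 at 34.3%, are not called.

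Other genes of the same pathway, from 5 lists of 103 names, were called in a share near that of all genes. Of 91 with a row 16 were called higher and 19 lower, 38.5% in all beside the 42% of all genes tested, with a median log2 fold change of -0.05. In the list of break formation, damage signalling and checkpoint genes 3 of 19 were higher and 2 lower. Mdc1, which spreads the damage mark on chromatin, rose by 1.501 ± 0.29 and Brca1, of homologous repair, by 0.89 ± 0.23 (edgeR adjusted p = 0.00286 and 0.0115). Rad9a, a subunit of the checkpoint clamp, fell by 1.03 ± 0.21 (edgeR adjusted p = 0.00335), and Rad50, of the break-resecting complex, by 0.55 ± 0.19 (edgeR adjusted p = 0.0429). The Brca1 call was lost with library totals alone and without wild-type replicate 3. The Rad50 call was lost without SKO replicate 1 or 3 or any 1 wild-type library, and with upper quartile scaling, no filter or the length and GC correction.

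Among other strand exchange genes 2 of 23 were higher and 4 lower, beside 21.2% and 20.9% of all genes tested. Psmc3ip, which helps DMC1 invade the homolog, rose from 268 ± 14.9 to 563 ± 123 CPM (SD, n = 3 each; log2 fold change 1.07 ± 0.16, edgeR adjusted p = 0.000795), and Swi5, of homologous repair, rose by 0.44 ± 0.16 (edgeR adjusted p = 0.0486). The Swi5 call was lost when any 1 library other than SKO replicate 1 was left out, with library totals or DESeq2 size factors, and with no filter. Rad51b, of homologous repair, and Fanci, of crosslink repair, fell by 1.83 ± 0.23 and 2.42 ± 0.40 (edgeR adjusted p = 0.000276 and 0.00125). Other crossover genes had 1 of 17 higher and 5 lower. Mus81, a nuclease that cuts recombination intermediates, went from 23.4 ± 2.12 to 7.06 ± 0.733 CPM (SD, n = 3 each; log2 fold change -1.73 ± 0.16, edgeR adjusted p = 7.32e-05). Prr19, which with CNTD1 promotes crossovers, fell by 1.09 ± 0.19 (edgeR adjusted p = 0.00154), and Rmi1, of the complex that dissolves joint molecules, rose by 0.42 ± 0.14 (edgeR adjusted p = 0.0315). That call was lost when any 1 library other than SKO replicate 3 was left out, with library totals alone and after the length and GC correction.

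Cohesin regulators and related SMC genes had 7 of 21 higher and 4 lower, beside 21.2% and 20.9% of all genes tested. Smc4, a condensin arm, went from 256 ± 3.54 to 528 ± 12 CPM (SD, n = 3 each; log2 fold change 1.05 ± 0.11, edgeR adjusted p = 0.000126). Mau2, the partner of the cohesin loader NIPBL, fell by 1.56 ± 0.23 (edgeR adjusted p = 0.000692), and Meikin, which guards sister centromeres in the first division, by 1.02 ± 0.21 (edgeR adjusted p = 0.00409). In the list of telomere movement, pairing and meiotic entry 3 of 11 were higher and 4 lower. Dazl, whose protein binds germ cell mRNAs, rose by 1.80 ± 0.16 and Skp1a, a ubiquitin ligase subunit, by 0.56 ± 0.12 (edgeR adjusted p = 5.77e-05 and 0.0054). Sun1, the envelope protein that telomeres are moved through, and Dmrt1, a regulator of meiotic entry that is also among the spermatogonial markers, fell by 0.94 ± 0.17 and 1.82 ± 0.32 (edgeR adjusted p = 0.00185 and 0.00177).

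**Figure D5:**
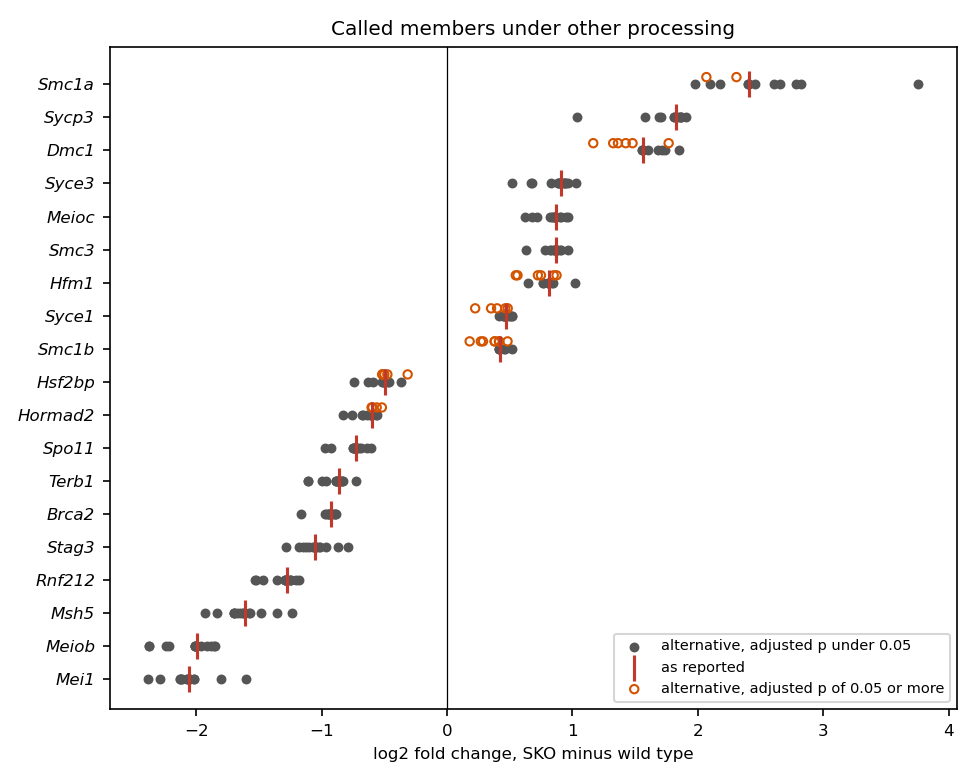
Log2 fold change of the 19 called members as reported (red bar) and under each alternative processing (points), on the horizontal axis. Filled grey points have an adjusted p under 0.05, and open orange points do not. No called member changed sign, and 12 of 19 were called under each alternative that tested them.

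Under the alternatives tried, 12 of the 19 called members were called in each one in which they were tested. These were Sycp3, Syce3, Smc3 and Meioc among the members higher and Spo11, Mei1, Brca2, Meiob, Msh5, Rnf212, Stag3 and Terb1 among those lower. Mei1 and Meiob were below the stricter filter of 5 CPM in 3 libraries and so had no value there. None of the 19 changed sign under any of these alternatives.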

How the data were processed

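Polyadenylated RNA of sorted round spermatids was measured by Smart-seq2 in 3 SKO and 3 wild-type libraries. The authors deposited raw counts per gene, with a column for each library. The submitters' processing notes name Trim Galore 0.6.4, FastQC, featureCounts 1.5.0-p3 (Subread), HISAT2 2.0.5 and the mouse build GRCm38/mm10, but no annotation release, strand setting or treatment of multi-mapping reads. The deposited counts were tested with edgeR 4.0.16 in R 4.3.3, group as the only term, after filterByExpr (minimum count 10, minimum total 15). TMM normalization was used, tests were quasi-likelihood F tests, and p-values were Benjamini-Hochberg adjusted over 19776 genes. Standard errors were taken from the F statistic, as the log2 fold change over its root. Transcript length and GC content came from GENCODE M21, matched for 97.7% of gene rows, and promoters from RefSeq. Ratios were tested by exact permutation. The fits were tested on simulated data with 200 changed genes. In the data 8312 genes were called, so the simulation did not test the scaling where many genes change. PCR reads without molecular identifiers are not independent molecules.

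Members, lists and the naming rule (all members, and from each pathway list up to 2 genes called each way with the lowest adjusted p) were chosen with earlier results of these data known. The motifs and the counts with older symbols were chosen after seeing the data. Alternatives were DESeq2 1.42.0, DESeq2 size factors, upper quartile factors, library totals, no filter, limma-voom (limma 3.58.1), a stricter filter (5 CPM or more in 3 libraries), each library left out, the replicate number as a block, and a loess correction of each library for length and GC content. Chi-square per degree of freedom between replicates was 14.8 to 149, so no libraries were merged. A ratio of Rad21l to Rad21 had been planned and was not computed, since no row used here has the name Rad21l.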

Additional observations from a re-analysis of the deposited data

How the results depend on the processing

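Of the 19 called members 12 kept the call under each alternative that tested them, and 8 of the 18 uncalled members were called under at least 1. Library totals alone gave 5 members higher and 14 lower, 10 other pathway genes higher and 29 lower, and 2831 genes higher and 5666 lower in all (4185 and 4127 as reported); the medians of all genes and of the members moved to -0.23 and -0.18. The filter of 5 CPM gave 3072 genes higher and 2742 lower of only 10279 tested, where 19776 were tested as reported. With 1 library left out, members called higher ranged from 4 to 10 and lower from 8 to 13. All genes called higher then ranged from 3064 to 4329 and lower from 3025 to 4766. Uncalled members changed sign. With library totals the log2 fold change of Sycp1 was -0.18, of Rad51ap2 -0.057, of Mlh3 -0.068, of Tex11 -0.018, of Terb2 -0.071 and of Ythdc2 -0.10. After the length and GC correction Sycp1 was at -0.35, Tex12 at -0.16, Hormad1 at -0.092, Rad51ap2 at -0.15 and Terb2 at -0.25. Upper quartile factors put Sycp2 at 0.0033 and Tex15 at 0.012, and the 5 CPM filter put Tex15 at 0.0032. With 1 library left out, ranges that crossed 0 were -0.014 to 0.16 for Sycp1, -0.15 to 0.049 for Sycp2, -0.021 to 0.71 for Rad51ap2, -0.14 to 0.030 for Tex15, -0.023 to 0.47 for Mlh3, -0.044 to 0.47 for Tex11, -0.28 to 0.12 for Rad21 and -0.072 to 0.40 for Terb2. The log2 ratio of Rec8 to Rad21 likewise ran from -0.76 to 0.062. The cause of these changes was not tested. Replicate numbers are shared between groups in the labels, but deviations of same-numbered libraries correlated at -0.022, -0.051 and -0.065, so the numbers were not taken as pairs. A replicate block gave 7 members higher and 8 lower, without the calls of Syce1, Hormad2, Hsf2bp and Smc1b. It gave 12 and 19 other pathway genes, and 3552 and 3666 genes in all. For the ratios a block cannot change the difference between group means, so it was no check there. Depth limits Smc1a and Dmc1 most, with 8 to 53 and 10 to 40 wild-type counts.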

Other observations

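Set against the wild-type mean with 0.1 CPM added, the medians of the members called higher were 0.91, 1.09 and 0.88 on the log2 scale in SKO replicates 1, 2 and 3, and those of the members called lower were -0.90, -0.92 and -1.11. These members were picked by their calls in the same libraries. The sign of their medians therefore follows from that choice and is no check of the calls. Over all 37 members the medians were 0.07, 0.15 and -0.21, so SKO replicate 3 stood below the other SKO libraries, while the medians over all genes were within 0.0016 to 0.0109.

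Beside Sycp3 and Rec114, other members shared exonic bases with a gene on the opposite strand. Hsf2bp shared 54 of 3589 exonic bases with Rrp1b, which stood at 2.56 ± 0.664 CPM in SKO and 3.30 ± 0.499 CPM in wild type (SD, n = 3 each) and was not called. Brca2 shared 41 of 13643 with Gm42529, and Msh4 shared 125 of 6895 with the snoRNA gene Gm24395. Nptn, which shares bases with Rec114, stood at 112 ± 20.6 CPM in SKO and 114 ± 7.28 CPM in wild type.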
